A study of Mus musculus with 15 samples.

Results

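Transcript levels of 8 inflammatory cytokine genes and of the sensor gene Nlrp3 were followed while bone marrow cells became macrophages, and in macrophages held with or without IL4. The 9 genes were taken by symbol: Tnf, Il1a, Il1b, Il6, Il18, Nlrp3, Il1rn, Il10 and Tgfb1. Each is present in both deposited count tables, of 34245 genes (differentiation) and 25965 genes (IL4).

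All cells came from the marrow of male C57BL/6 mice, 8 to 10 weeks old, and were grown with CSF-1, a growth factor that drives the macrophage lineage. Non-adherent precursors had spent 2 days at 0.6 ng/ml CSF-1 with 15% FCS (fetal calf serum). Immature macrophages had a further 4 days at 12 ng/ml with 10% FCS, 6 days in all. Mature macrophages had 1 day at 0.6, 2 days at 12 and 7 days at 120 ng/ml, 10 days in all. In the IL4 table, mature macrophages were kept for another 48 h in fresh medium at 120 ng/ml CSF-1 either with IL4 at 20 ng/ml or unstimulated, without it. IL4 is a T helper cytokine of allergy and worm infection. Each of the 5 groups had 3 libraries, titled mouse 1 to 3, sequenced by Ion Torrent. All macrophage groups started at 15% FCS and ended at 10%. Dose of CSF-1 and time in culture changed together between the stages. The last serum level changed with them only between precursors and macrophages, so the parts of these factors cannot be told apart.

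Tumour necrosis factor (Tnf), the interleukin 1 cytokines (Il1a, Il1b) and interleukin 6 (Il6) are released by macrophages that meet microbes or damaged tissue. Il1b and interleukin 18 (Il18) are made as inactive precursors, and the NLRP3 inflammasome, once assembled, activates the protease caspase 1 that cuts them. The response is held back by the interleukin 1 receptor antagonist (Il1rn), interleukin 10 (Il10) and transforming growth factor beta 1 (Tgfb1). Levels of such transcripts do not report how much cytokine is processed or released.

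The differentiation libraries held 7897769 to 22167294 reads in genes and the IL4 table libraries 2408531 to 4214266, so low genes are measured less well with IL4. Gene levels are given as CPM, that is a gene's reads relative to all reads of its library, normalised by TMM, and changes are log2 fold change ± SE from edgeR's quasi-likelihood test. A gene rose or fell where its Benjamini-Hochberg adjusted p, over all genes tested in its table, was under 0.05. Macrophage markers (9 genes, all detected in each differentiation library) summed to 7127 to 9410 CPM in precursors, 20893 to 42526 CPM in immature and 37698 to 65660 CPM in mature macrophages. Most of each sum was Lyz2, at 6803 ± 883, 21012 ± 9591 and 43780 ± 13152 CPM (SD, n = 3) in that order. The precursors also carried other cells' transcripts: 15 neutrophil markers summed to 14914 to 22187 CPM there, to 235 to 288 CPM in immature and to 3.51 to 6.05 CPM in mature macrophages. The 8 monocyte markers summed to 3231 to 3904, 347 to 461 and 0.971 to 3.67 CPM in those 3 stages. In such bulk RNA, fewer cells of a type and less RNA per cell cannot be told apart.

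The promoters of 4 of the genes are shown because their levels moved in different ways. Tnf and Nlrp3 fell with IL4, Il1rn was higher with IL4 within each mouse number, and Il1b was nearly lost after the precursor stage. Each line holds the 250 bases before the transcription start from RefSeq on GRCm38.p6, 5′ to 3′ on the gene's strand, with motif letters in capitals. They lie at chr17:35202008-35202257 on the minus strand (Tnf), chr11:59541319-59541568 on the plus strand (Nlrp3), chr2:24336610-24336859 on the plus strand (Il1rn) and chr2:129371140-129371389 on the minus strand (Il1b). RefSeq lists 2 starts for Nlrp3 and 3 for Il1rn, and the one nearest to the deposited gene start was taken.
Tnf: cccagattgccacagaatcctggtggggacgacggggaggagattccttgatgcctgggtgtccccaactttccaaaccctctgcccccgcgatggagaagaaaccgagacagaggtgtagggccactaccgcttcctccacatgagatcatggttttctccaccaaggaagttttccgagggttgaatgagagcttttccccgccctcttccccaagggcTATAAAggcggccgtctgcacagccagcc
Nlrp3: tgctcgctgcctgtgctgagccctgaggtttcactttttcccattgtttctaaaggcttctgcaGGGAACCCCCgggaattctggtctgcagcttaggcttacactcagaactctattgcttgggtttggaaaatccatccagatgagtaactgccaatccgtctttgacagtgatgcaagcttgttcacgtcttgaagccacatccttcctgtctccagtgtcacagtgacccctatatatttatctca
Il1rn: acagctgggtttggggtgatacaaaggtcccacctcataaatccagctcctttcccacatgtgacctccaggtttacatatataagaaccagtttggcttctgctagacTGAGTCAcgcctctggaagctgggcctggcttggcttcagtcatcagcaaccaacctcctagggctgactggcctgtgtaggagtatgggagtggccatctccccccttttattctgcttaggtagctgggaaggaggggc
Il1b: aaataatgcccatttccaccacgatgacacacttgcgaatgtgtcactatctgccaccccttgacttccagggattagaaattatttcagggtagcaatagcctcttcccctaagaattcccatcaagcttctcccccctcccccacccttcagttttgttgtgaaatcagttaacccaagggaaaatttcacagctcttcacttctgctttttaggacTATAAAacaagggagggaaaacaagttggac
Both strands were searched for an NF-kappaB motif, AP-1 (TGANTCA), the TATA box (TATAAA), a STAT6 motif, C/EBP (TTGCNNAA), an interferon regulatory factor motif and the GC box (GGGCGG, left in lower case). Tnf holds a TATA box 29 to 24 bases before its start, and Il1b one at 31 to 26. Nlrp3 holds the NF-kappaB motif at 186 to 177, and its letters match on both strands. Il1rn holds AP-1 at 141 to 135. The promoters of Il1a, Il6, Il18 and Tgfb1, not shown, hold matches too. Among these are the STAT6 motif in Il18 at 46 to 37 and NF-kappaB motifs in Il6 and Tgfb1. Of 32851 promoters of this length, 12.4% hold the TATA box, 7.25% the NF-kappaB motif, 6.75% AP-1, 5.85% STAT6, 9.56% C/EBP, 2.98% the interferon regulatory factor motif and 32.7% the GC box. A match is a description of the letters and no evidence of binding.

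The first question was how the inflammatory genes change as precursors become macrophages. In immature macrophages against precursors, 8 of the 9 genes could be tested, of which 2 rose and 5 fell, and Il6 was below the count filter. Of all 13359 genes tested, 49.2% changed in that comparison (22.5% rose and 26.6% fell). The libraries of the 2 groups did not overlap for 7 of the 8, and for 65% of all genes. In mature against immature macrophages, 2 of the 8 rose, with 14.9% of all genes called (7.52% higher and 7.38% lower), and the groups did not overlap for 3 of the 8 and for 32.2% of all genes. None of the 8 fell by edgeR's adjusted p, while 2 were lower at an unadjusted p under 0.05, 1 by DESeq2 and 0 by limma. In mature macrophages against precursors, 3 of 8 rose and 3 fell, with 54.3% of all genes called (25.8% higher and 28.5% lower), and the groups did not overlap for 6 of the 8 and for 64.1% of all genes. The median log2 fold change of the 8 genes was -1.34 for immature over precursor, 0.35 for mature over immature and -0.37 for mature over precursor, beside -0.07, 0 and -0.05 for all genes tested.

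**Figure D1:**
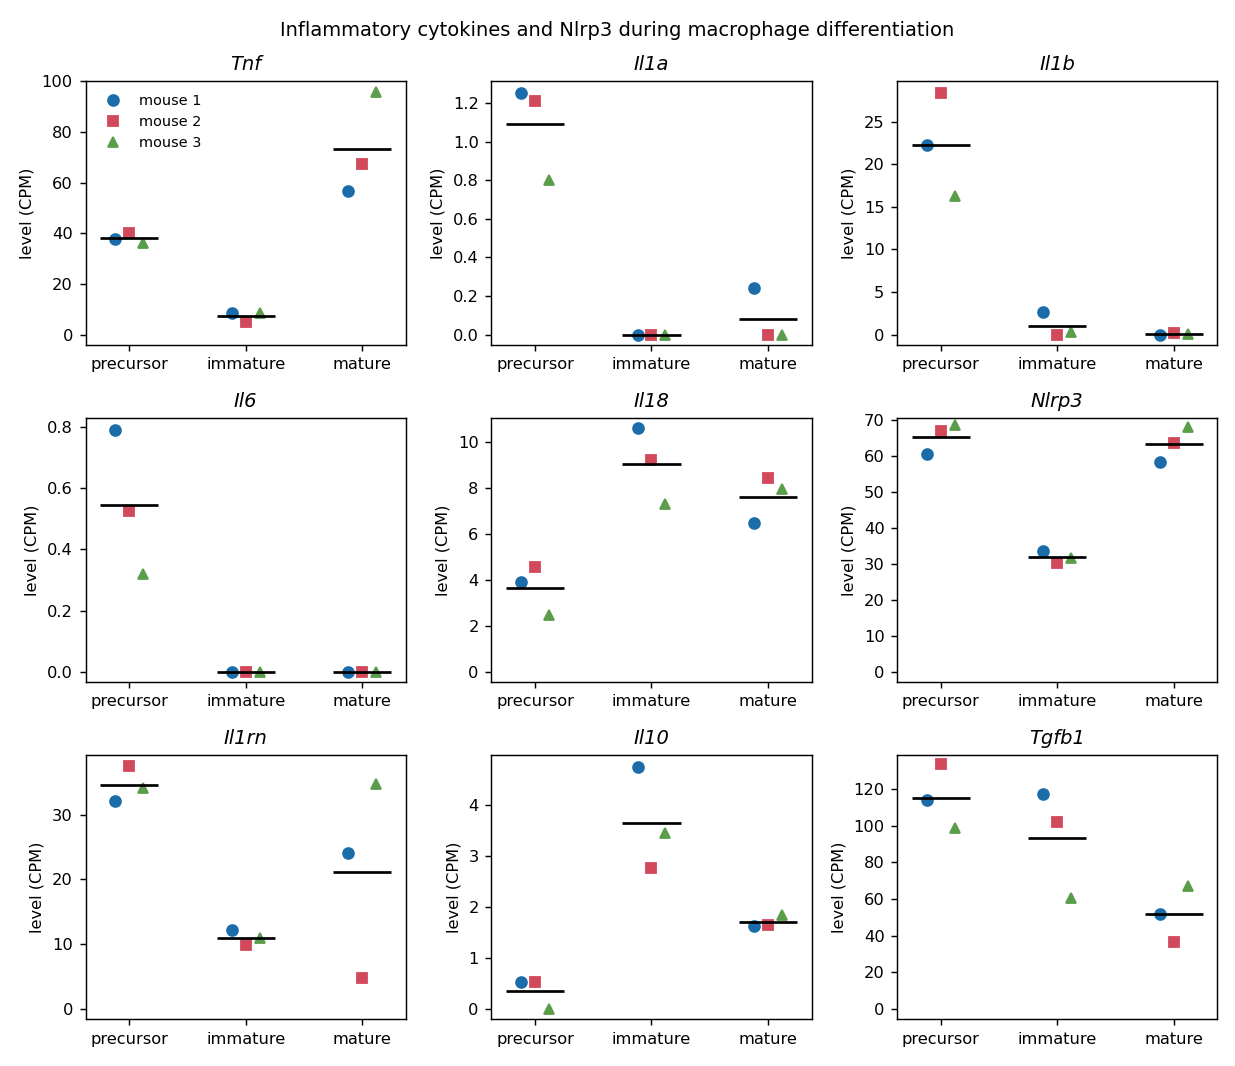
Levels (CPM, linear axes, 1 panel per gene) of the 9 genes in precursors, immature and mature macrophages. Each point is 1 library, marked by mouse number, and the bar is the mean of 3. Tnf and Nlrp3 are lowest in immature macrophages, while Il1a, Il1b and Il6 are near or at 0 after the precursor stage.

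Tnf dipped and came back. It had 37.8, 40.1 and 36.0 CPM in precursors, 8.67, 5.01 and 8.31 CPM in immature and 56.7, 67.4 and 95.6 CPM in mature macrophages. No library of one stage reached the range of another. Tnf fell in immature macrophages against precursors by 2.37 ± 0.26 on the log2 scale (adjusted p = 4.9e-05) and rose in mature against immature macrophages by 3.32 ± 0.27 (adjusted p = 4.6e-05). Mature macrophages also lay above precursors, by 0.95 ± 0.24 (adjusted p = 0.00705).

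Il1b, the secreted interleukin 1 agonist, nearly disappeared. Precursors had 22.3, 28.3 and 16.3 CPM, immature macrophages 2.60, 0 and 0.256 CPM, and mature macrophages 0, 0.234 and 0.0765 CPM. Of the 35 reads in immature macrophages, 33 came from library 1, and mature macrophages held 3 reads in all. Il1b fell in immature macrophages against precursors, with a log2 fold change of -4.40 ± 0.81 (adjusted p = 0.00125) that was -7.48 without immature library 1. In mature macrophages it fell against precursors (adjusted p = 0.000179), with pooled reads 269-fold lower (95% exact interval 91.7 to 1304). The log2 fold change was -7.82 ± 1.10, and -7.21 without mature library 1 and -8.84 without mature library 2. Intervals and lower bounds of this kind cover counting error only. Between mature and immature macrophages the log2 fold change of -3.42 ± 1.33 did not pass (adjusted p = 0.11), and it passed without immature library 2 (adjusted p = 0.044).

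Il1a, the interleukin 1 agonist that is active without that cut, was far lower at the outset, with 1.25, 1.21 and 0.803 CPM in precursors (59 reads). Immature macrophages held 0 reads, which is at least 11.4-fold lower when 3 reads over the group are taken as the floor (adjusted p = 0.00383). Mature macrophages held 3 reads, all in library 1, and were 12.7-fold lower than precursors (95% exact interval 4.15 to 63.6, adjusted p = 0.0106). The fitted log2 fold change of -3.51 was -6.85 without mature library 1 and -2.89 without mature library 3. Il6 was detected in precursors alone, at 0.790, 0.525 and 0.321 CPM (29 reads). Its 0 reads in the other stages put it at least 5.59-fold lower in immature and at least 6.26-fold lower in mature macrophages. It was tested when no count filter was set, and its adjusted p was then 0.0260 and 0.0199. Il1a overlaps the plus-strand gene Gm14023 and Il1b the antisense gene Il1bos. The strand setting of the counting is not given in the sources used here, so reads of these pairs cannot be told apart.

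The neutrophil and monocyte marker sums given above were lower in the same stages as Il1a, Il1b and Il6, and their part in these results was not tested. S100a9, the most abundant of the neutrophil markers, had 6756 ± 1337 CPM at the precursor stage and 70.5 ± 15.2 CPM in immature macrophages (SD, n = 3 each), and 0 reads in mature macrophages. Between 10 and 11 of the 15 neutrophil markers were at 0 in each mature library, and 1 of 15 in each immature library. B cell markers (300 to 428 CPM summed over 9 genes) and mast cell and basophil markers (156 to 197 CPM over 8) were also highest in precursors, with at most 2.94 and 1.74 CPM in any later library. The 9 dendritic cell markers summed to 270 to 289 CPM in precursors, 16.0 to 21.7 CPM in immature and 47.5 to 268 CPM in mature macrophages, where 6 of the 9 were at 0 and Itgax led (130 ± 119 CPM). The highest mature sum was library 3 alone, and the other two had 79.6 and 47.5 CPM. This sum was lowest in immature macrophages, as Tnf and Nlrp3 were, and its part in their results was not tested. The 10 T and NK cell markers summed to 15.7 to 20.3 CPM, 2.81 to 32.9 CPM and 0.306 to 0.819 CPM in the 3 stages, and nearly all of the immature sum was Cd4, with 7 to 9 of the 10 at 0.

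Nlrp3, the sensor that nucleates the inflammasome, followed the dip of Tnf with a smaller range. Precursors had 60.6, 67.0 and 68.6 CPM, immature macrophages 33.6, 30.3 and 31.6 CPM, and mature macrophages 58.4, 63.7 and 68.0 CPM. The immature libraries lay below all others, and the ranges of mature macrophages and precursors overlapped. Nlrp3 fell in immature macrophages against precursors by 1.04 ± 0.15 on the log2 scale (adjusted p = 0.000304) and rose in mature against immature macrophages by 0.99 ± 0.15 (adjusted p = 0.00192). Mature macrophages and precursors differed by a log2 fold change of -0.05 ± 0.15 (adjusted p = 0.81), less than the spread between libraries.

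Il18, the caspase 1 substrate whose product drives interferon gamma release, went the other way. It had 3.89, 4.56 and 2.49 CPM in precursors, 10.6, 9.21 and 7.29 CPM in immature and 6.48, 8.42 and 7.96 CPM in mature macrophages. All libraries of both macrophage stages lay above those of precursors. Il18 rose by 1.30 ± 0.30 in immature macrophages (adjusted p = 0.00431) and by 1.05 ± 0.30 in mature macrophages (adjusted p = 0.0119), both against precursors. The 2 macrophage stages overlapped (log2 fold change -0.25 ± 0.29, adjusted p = 0.60). In the differentiation table Il18 spans a region that overlaps Bco2 and Tex12 on the other strand, so some of its reads may not be its own.

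**Figure D2:**
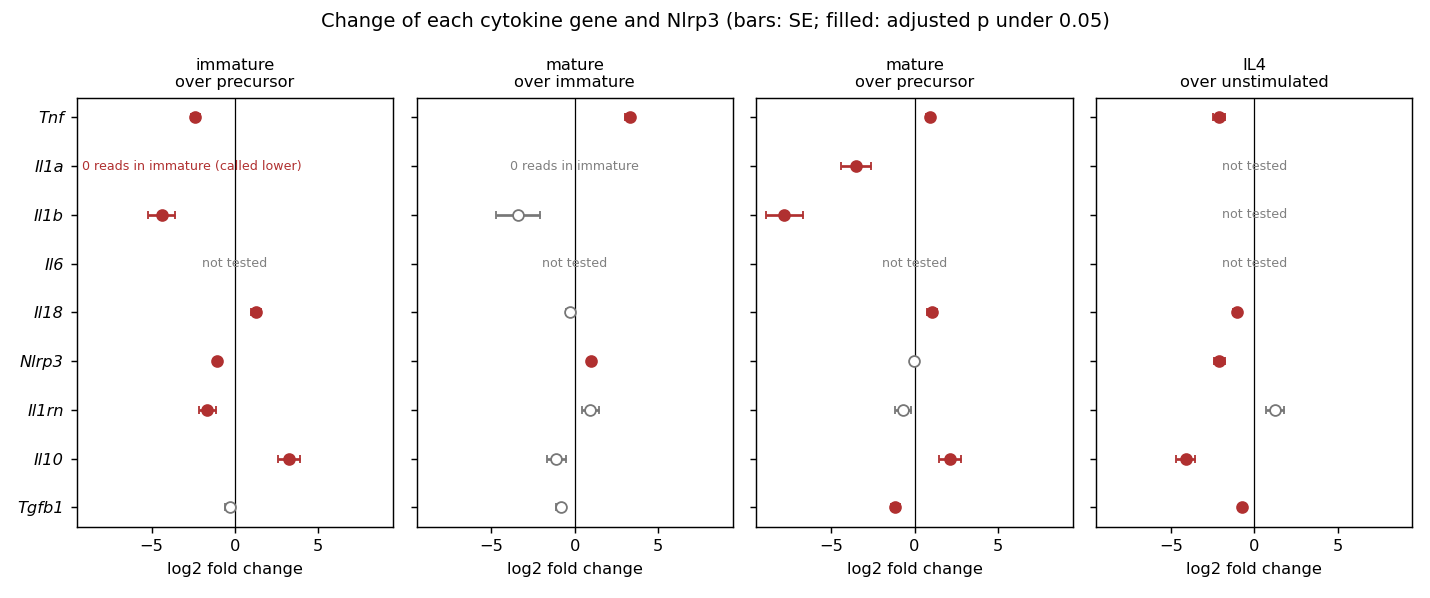
Log2 fold change (x axis) of each gene in the 4 comparisons, with bars for the SE of the edgeR fit. Filled points had an adjusted p under 0.05, open points did not, and no fitted value is drawn for Il1a where immature macrophages held 0 reads. Tnf and Nlrp3 lie left of 0 in immature over precursor and in IL4 over unstimulated, and right of 0 in mature over immature.

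Il1rn, which blocks the interleukin 1 receptor without activating it, had 32.1, 37.5 and 34.1 CPM at the precursor stage and 12.2, 9.93 and 10.9 CPM in immature macrophages. Mature libraries were spread widely, at 24.04, 4.80 and 34.7 CPM, and overlapped both other stages. Il1rn fell in immature macrophages against precursors by 1.65 ± 0.50 on the log2 scale (adjusted p = 0.0195). That call was lost without precursor library 2 (adjusted p = 0.0501), immature library 2 (0.0658) or immature library 3 (0.0553). Mature macrophages differed from immature ones by 0.95 ± 0.50 (adjusted p = 0.23), and by 1.41 without mature library 2 (adjusted p = 0.00445). Against precursors the mature value was -0.70 ± 0.49 (adjusted p = 0.24).

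Per kilobase of exon, the precursors held more interleukin 1 agonist than antagonist transcript, but this rests on the lengths used. Those lengths join all annotated exons: 5535 bases for Il1rn, 1974 for Il1a and 1907 for Il1b. In CPM the order was reversed. Precursors had 32.1, 37.5 and 34.1 CPM of Il1rn, against 22.3, 28.3 and 16.3 CPM of Il1b and at most 1.25 CPM of Il1a. The ratio per kilobase of Il1rn to the sum of Il1a and Il1b was 0.472, 0.438 and 0.689 in the 3 precursor libraries and 1.62 in immature library 1. The other immature and mature libraries had at most 3 agonist reads each, too few for a ratio.

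Il10, a cytokine that damps macrophage activation, was low throughout. It had 0.527, 0.525 and 0 CPM in precursors (21 reads), 4.73, 2.76 and 3.45 CPM in immature (114 reads) and 1.62, 1.64 and 1.84 CPM in mature macrophages (58 reads). The 3 stages did not overlap. Il10 rose by 3.25 ± 0.65 in immature macrophages (adjusted p = 0.00203) and by 2.15 ± 0.65 in mature macrophages (adjusted p = 0.0170), both against precursors. The lower level in mature than in immature macrophages, -1.10 ± 0.58, did not pass (adjusted p = 0.23). By limma on the deposited log2 RPM the values against precursors were 4.79 for Il10 in immature and 3.86 in mature macrophages, and 2.05 and 1.77 for Il18.

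Tgfb1, secreted in a latent form that must be released to signal, had 114, 134 and 98.7 CPM in precursors, 118, 102 and 60.5 CPM in immature and 52.0, 36.4 and 67.1 CPM in mature macrophages. Mature macrophages lay below all precursor libraries and overlapped the immature ones. Tgfb1 fell in mature macrophages against precursors by 1.15 ± 0.28 on the log2 scale (adjusted p = 0.00538). Immature macrophages differed from precursors by -0.31 ± 0.28 (adjusted p = 0.38) and mature from immature ones by -0.85 ± 0.28 (adjusted p = 0.066). The last of these passed by DESeq2 (adjusted p = 0.0304), without immature library 3 (0.0182) and without mature library 3 (0.0313).

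Levels per kilobase of exon (RPKM) allow the genes to be ranked within a stage. In precursors Tnf (23.2 ± 1.26 RPKM) and Tgfb1 (22.9 ± 3.47) differed by less than their spread, followed by Nlrp3 (16.1 ± 1.04), Il1b (11.7 ± 3.16), Il1rn (6.25 ± 0.49) and Il18 (3.54 ± 1.03; SD, n = 3). In immature macrophages Tgfb1 led (18.5 ± 5.85), then Il18 (8.77 ± 1.63) and Nlrp3 (7.84 ± 0.41), which differed by less than their spread, and Tnf (4.47 ± 1.23), Il10 (2.78 ± 0.76) and Il1rn (1.99 ± 0.21). In mature macrophages Tnf led (44.7 ± 12.3), then Nlrp3 (15.6 ± 1.18), Tgfb1 (10.3 ± 3.05) and Il18 (7.39 ± 0.99), with Il1rn (3.82 ± 2.74) and Il10 (1.30 ± 0.092) below. The genes not named in a stage were each under 0.6 RPKM.

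The second question was what IL4 does to these genes in mature macrophages. In IL4-treated against unstimulated cells 6 of the 9 genes could be tested, of which 5 fell (Tnf, Nlrp3, Il18, Il10 and Tgfb1), and of all 8936 genes tested 20.8% changed (10.3% lower and 10.5% higher). The groups did not overlap for 5 of the 6, and for 35.9% of all genes. None of the 6 rose by edgeR's adjusted p, while 1 was higher at an unadjusted p under 0.05, and 0 by DESeq2 and by limma. Their median log2 fold change was -1.58, beside 0.01 for all genes tested. Il1a, Il1b and Il6 were too low to test.

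**Figure D3:**
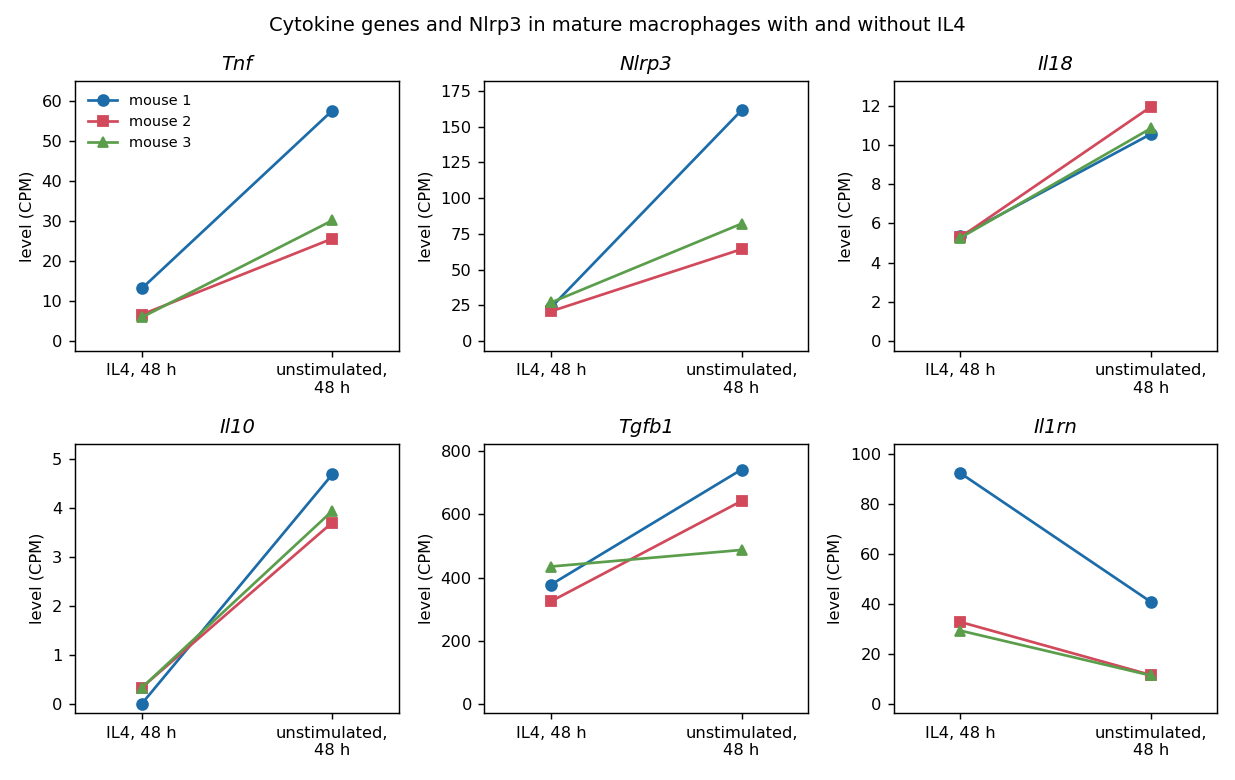
Levels (CPM, linear axes) of the 6 genes tested in IL4-treated (left) and unstimulated (right) mature macrophages at 48 h, with a line joining libraries of the same mouse number. Il1rn is higher with IL4 along all 3 lines, and the other 5 genes are lower along all 3.

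Tnf fell in IL4-treated macrophages, which had 13.1, 6.62 and 5.93 CPM, against 57.5, 25.5 and 30.1 CPM in unstimulated cells. The groups did not overlap, and library 1 was the highest in both. The log2 fold change was -2.13 ± 0.38 (adjusted p = 0.00219), and unstimulated cells were 4.38, 3.86 and 5.08 times higher within mouse numbers 1, 2 and 3. Nlrp3 had 23.6, 20.9 and 27.0 CPM with IL4, against 161, 64.3 and 82.1 CPM in unstimulated cells. It fell by 2.11 ± 0.32 on the log2 scale (adjusted p = 0.00082), with groups apart and unstimulated library 1 far above the other two. Without that library Nlrp3 changed by -1.63 (adjusted p = 0.000468) and Tnf by -1.68 (adjusted p = 0.00364). With the mouse 1 libraries both left out Nlrp3 changed by -1.62 (adjusted p = 0.000735) and Tnf by -2.15 (adjusted p = 0.000207) (log2).

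Il10 was almost lost with IL4. Treated libraries had 0, 0.331 and 0.329 CPM (2 reads in all), against 4.69, 3.71 and 3.95 CPM in unstimulated cells (45 reads). Pooled reads were 20.5-fold lower with IL4 (95% exact interval 5.36 to 175, adjusted p = 0.00044). The log2 fold change was -4.12 ± 0.57, and -3.52 without IL4 library 1. Il18 had 5.36, 5.30 and 5.27 CPM with IL4, against 10.6, 12.0 and 10.9 CPM in unstimulated cells, and the groups were apart with little spread. It fell by 1.05 ± 0.23 (log2, adjusted p = 0.00773), on 52 reads with IL4 and 118 without. The IL4 table gives Il18 a start at 50575273 on chromosome 9, not 50554827 as in the differentiation table, and that shorter region overlaps no gene on the other strand.

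Tgfb1 had 378, 325 and 435 CPM with IL4, against 742, 642 and 487 CPM in unstimulated cells. The groups were apart, but libraries of mouse number 3 differed 1.12-fold, against 1.97-fold for number 1 and 1.98-fold for number 2. Tgfb1 fell by 0.72 ± 0.20 on the log2 scale (adjusted p = 0.0256). The call was lost without unstimulated library 1 (adjusted p = 0.0819) or 2 (0.0740), without IL4 library 2 (0.125), and without both mouse 1 libraries (0.108).

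Il1rn was the 1 tested gene that was higher with IL4 within each mouse number. The numbers come from the titles, while the descriptions give each library a different mouse code, so this pairing is uncertain. IL4-treated libraries had 92.4, 32.8 and 29.3 CPM, against 40.8, 11.5 and 11.3 CPM in unstimulated cells. The groups overlapped, because unstimulated library 1 lay above IL4 libraries 2 and 3. The unpaired log2 fold change of 1.25 ± 0.54 did not pass (adjusted p = 0.136). Within each mouse number, Il1rn was 2.26, 2.84 and 2.58 times higher with IL4. With the mouse number as a block, the log2 fold change was 1.31 ± 0.18 and the adjusted p 2.7e-05. In the unpaired fit it was 1.44 without both mouse 1 libraries (adjusted p = 0.00149), 2.18 without unstimulated library 1 (adjusted p = 0.00895), and 0.51 without IL4 library 1 (adjusted p = 0.50).

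Il1b had 0 reads with IL4 and 2 reads in unstimulated cells, and Il6 had 0 reads in all 6 libraries. Il1a had 8 reads with IL4 and 3 in unstimulated cells, a ratio of 2.93 with a 95% exact interval of 0.702 to 17.1. A gene at 0 here is not always a silent gene: of 7902 genes of this table with at least 10 CPM in mature macrophages of the other table, 501 were at 0 reads in all 6 libraries. Nfkb1 is among them, at 188 ± 20.0 CPM in mature macrophages (SD, n = 3). Per kilobase, Tgfb1 was the highest of the 9 in IL4-treated (75.2 ± 10.9 RPKM) and in unstimulated cells (124 ± 25.5). Next came Il1rn (9.30 ± 6.41), Nlrp3 (5.87 ± 0.76), Tnf (5.22 ± 2.42) and Il18 (5.15 ± 0.043) with IL4, which lay within the spread of Il1rn. In unstimulated cells the next were Nlrp3 (25.3 ± 12.7), Tnf (23.01 ± 10.5) and Il18 (10.8 ± 0.71), of which the first 2 differed by less than their spread. The Il18 values use the M21 exon length of 1031 bases, although this table gives Il18 a shorter region, so its place in the order is uncertain.

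Other cell markers moved with IL4 as well. The 8 macrophage markers in this table summed to 19978 to 21932 CPM with IL4 and 41494 to 56076 CPM without. Lyz2 made up most of that gap, with 15508 ± 1397 CPM with IL4 and 42645 ± 6392 CPM without. Cd68 had 3034 ± 504 CPM with IL4 and 3026 ± 682 CPM without, and Trem2 733 ± 153 and 646 ± 25.9 CPM. Other macrophage markers were lower with IL4. Mrc1 had 982 ± 226 CPM with IL4 and 1781 ± 457 CPM without, and Csf1r 364 ± 28.2 and 522 ± 104 CPM. Mertk had 38.3 ± 1.39 and 79.9 ± 1.32 CPM, and Fcgr1 9.60 ± 3.68 and 101 ± 7.62 CPM, in the same order. C1qa was nearly absent from this table, with 2 reads with IL4 and 33 without, while mature macrophages of the other table had 2572 ± 752 CPM. Genes such as Nfkb1 above also differ between the tables, which were not tested against each other. The C1qa gap between tables is therefore not read as a change. The 9 dendritic cell markers summed to 2369 to 4257 CPM with IL4 and 13.8 to 68.0 CPM without. That sum was led by Itgax, at 3107 ± 1000 CPM with IL4 and 34.2 ± 28.7 CPM without (SD, n = 3 each), and 5 to 6 of the 9 markers were at 0 in the IL4 libraries. Monocyte markers (7 genes) summed to 2.95 to 6.58 CPM with IL4 and 9.48 to 102 CPM without, where the highest value was unstimulated library 3 alone, nearly all of it F13a1 (100.1 CPM), and the other two had 11.7 and 9.48 CPM. B cell, mast cell and basophil markers were at 0 reads in all 6 libraries. The part of these shifts in the results was not tested.

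The genes around the members were taken from 7 lists of the same pathways, with 121 genes in the differentiation table (112 tested) and 120 in the IL4 table (87 tested). Together 19 rose and 36 fell in immature macrophages against precursors, 10 rose and 15 fell in mature against immature macrophages, and 22 rose and 41 fell in mature macrophages against precursors. With IL4, 10 rose and 16 fell. The share called was 49.1% of pathway genes and 49.2% of all genes tested in immature against precursor cells, and 56.2% and 54.3% in mature against precursor cells, so both were near the background. It was 22.3% and 14.9% in mature against immature macrophages, and 29.9% and 20.8% with IL4. Counts of single lists are read against the same shares of all genes.

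**Figure D4:**
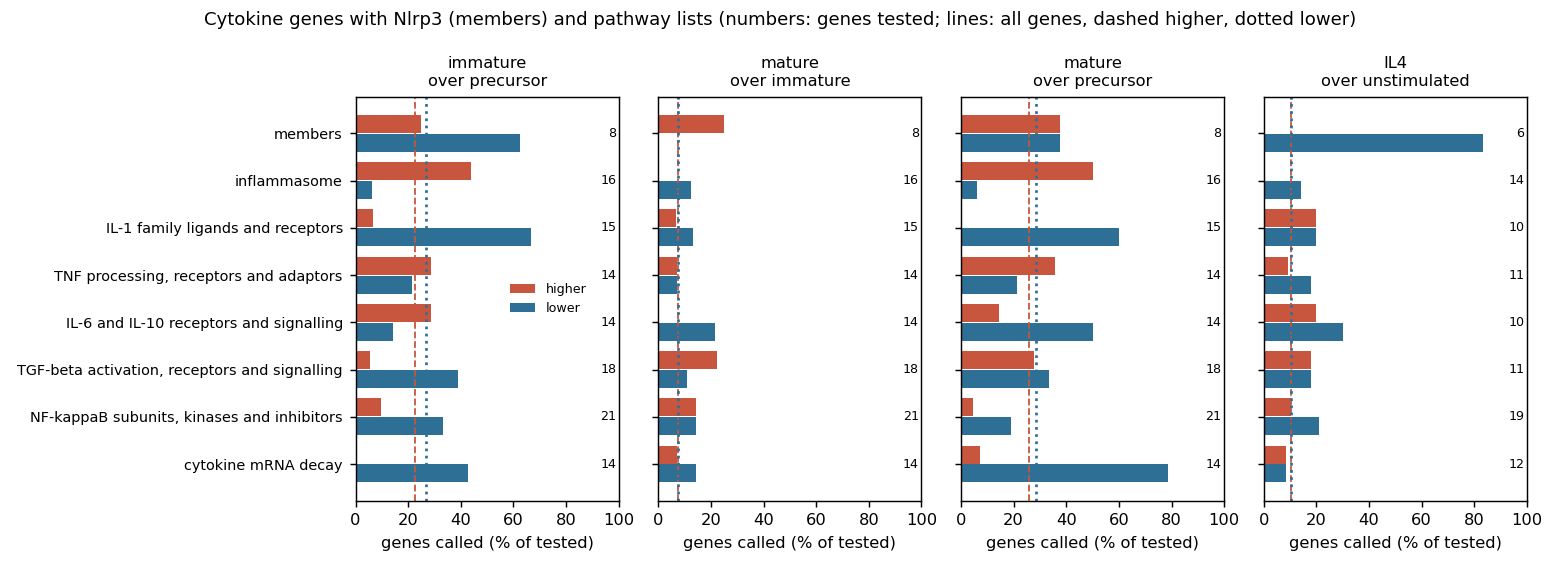
Share of the tested genes (x axis, percent) of the 9 genes (members) and of each pathway list that were called higher or lower in the 4 comparisons, with the number tested at the right edge. Dashed and dotted lines mark the share of all genes called higher and lower. The interleukin 1 family list has 10 of 15 genes lower in immature macrophages than in precursors.

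Of the inflammasome genes, 7 of 16 rose and 1 fell in immature macrophages against precursors (50.0% called, 49.2% of all genes), and 8 of 16 rose and 1 fell in mature macrophages against precursors (56.2%, 54.3% of all genes). In mature against immature macrophages 2 of 16 changed, both lower (12.5%, 14.9% of all genes). Casp1, which cuts the Il1b and Il18 precursors, had 90.3 ± 9.56 CPM in immature and 46.5 ± 1.06 CPM in precursor cells (log2 0.96 ± 0.15, adjusted p = 0.000399), and 106 ± 1.40 CPM in mature macrophages. Ninj1, which ruptures the membrane of dying cells, rose by 2.10 ± 0.27 in immature macrophages. It then fell by 1.32 ± 0.27 in mature against immature macrophages. Mefv, which encodes the sensor pyrin, was the one that fell, with 78 reads in immature macrophages and 0 in mature ones, against 2774 in precursors. With IL4, 2 of 14 changed, Ninj1 (-1.16 ± 0.25, adjusted p = 0.0068) and the sensor gene Nlrc4 (-1.17 ± 0.29, adjusted p = 0.0152), both lower (14.3%, 20.8% of all genes).

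Of the interleukin 1 family ligands and receptors, 1 of 15 rose and 10 fell in immature macrophages against precursors, beside 22.5% of all genes higher and 26.6% lower. In mature macrophages against precursors 9 of 15 changed, all lower, beside 28.5% of all genes lower. Il1f9 (interleukin 36 gamma) had 1 read in immature and 2 reads in mature macrophages, against 3193 in precursors, and the decoy receptor Il1r2 had 5 and 0, against 1433. The interleukin 18 receptor subunit Il18rap had 0.696 ± 0.43 CPM in immature and 0.840 ± 0.36 CPM in mature macrophages, against 83.2 ± 22.2 CPM in precursors. With IL4, 2 of 10 rose and 2 fell (40.0% called, 20.8% of all genes). Il1rl2, the interleukin 36 receptor, had 137 reads with IL4 and 0 without, at least 50.1-fold higher. Il1rl1, the interleukin 33 receptor, rose by 3.0 ± 0.38 (adjusted p = 0.000238), and Irak3, which restrains receptor signalling, fell by 1.41 ± 0.20 (adjusted p = 0.000543).

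In the list of TNF processing, receptors and adaptors, 4 of 14 rose and 3 fell in immature macrophages, and 5 rose and 3 fell in mature macrophages, against precursors. These shares, 50.0% and 57.1%, were near the 49.2% and 54.3% of all genes. Adam17, the protease that sheds TNF from the cell surface, rose by 1.19 ± 0.20 in immature and 1.22 ± 0.20 in mature macrophages. Ltb (lymphotoxin beta) had 0.502 ± 0.37 and 0.681 ± 0.061 CPM in those stages, against 39.0 ± 8.35 CPM in precursors. With IL4, 1 of 11 rose and 2 fell (27.3%, 20.8% of all genes): of the TNF receptors, Tnfrsf1b rose by 0.84 ± 0.25 (adjusted p = 0.0387) and Tnfrsf1a fell by 0.60 ± 0.17 (adjusted p = 0.0264).

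Among interleukin 6 and interleukin 10 receptors and signalling genes, 4 of 14 rose and 2 fell in immature macrophages, and 2 rose and 7 fell in mature macrophages, against precursors. The shares called were 42.9% and 64.3%, beside 49.2% and 54.3% of all genes. Il10rb, a subunit of the interleukin 10 receptor, rose by 1.88 ± 0.21 in immature and 1.99 ± 0.21 in mature macrophages. Il6ra, the interleukin 6 receptor, had 33.0 ± 6.30 CPM in mature macrophages, against 149 ± 11.4 CPM in precursors (log2 -2.18 ± 0.27). With IL4, 2 of 10 rose and 3 fell (50.0%, 20.8% of all genes). Il6st, the shared gp130 signalling chain, had 412 ± 34.6 CPM with IL4 and 92.4 ± 9.09 CPM without (2.16 ± 0.17, adjusted p = 1.3e-05), and Il11ra1, the interleukin 11 receptor, rose by 2.43 ± 0.20 (adjusted p = 1.8e-05). Ebi3, a cytokine subunit, fell by 1.77 ± 0.22 (adjusted p = 0.00023).

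For TGF-beta, 1 of 18 rose and 7 fell in immature macrophages, and 5 rose and 6 fell in mature macrophages, against precursors. The shares called were 44.4% and 61.1%, beside 49.2% and 54.3% of all genes. The receptor gene Tgfbr2 rose in mature macrophages, to 834 ± 212 CPM against 138 ± 8.86 CPM in precursors (2.60 ± 0.24). Thbs1, which encodes thrombospondin 1, an activator of latent TGF-beta, had 0.818 ± 0.57 CPM in mature macrophages, against 998 ± 246 CPM in precursors. With IL4, 2 of 11 rose and 2 fell (36.4%, 20.8% of all genes). Lrrc32, which holds latent TGF-beta at the cell surface, had 986 reads with IL4 and 0 without, at least 361-fold higher. Tgfbr2 fell by 1.91 ± 0.25 (adjusted p = 0.000275) and the signal transducer Smad3 by 1.85 ± 0.25 (adjusted p = 0.000409).

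Of the NF-kappaB genes, 1 of 21 rose and 4 fell in mature macrophages against precursors (23.8% called, 54.3% of all genes), and 2 rose and 7 fell in immature macrophages against precursors (42.9%, 49.2% of all genes). Rel, a subunit, fell by 1.36 ± 0.27 in immature and 2.46 ± 0.28 in mature macrophages, against precursors. Nfkbie, an inhibitor, dipped like Tnf and Nlrp3: it fell by 1.41 ± 0.20 in immature macrophages and rose by 0.99 ± 0.20 in mature against immature ones. With IL4, 2 of 19 rose and 4 fell (31.6%, 20.8% of all genes), among them the inhibitor Nfkbia, at 78.9 ± 10.3 CPM with IL4 and 287 ± 65.9 CPM without (-1.86 ± 0.21, adjusted p = 9.8e-05). Nfkbiz (-2.21 ± 0.23, adjusted p = 6.3e-05) and Bcl3 (-2.02 ± 0.30, adjusted p = 0.000687), nuclear members of the inhibitor family, fell too.

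Genes of cytokine mRNA decay were lower in mature macrophages than in precursors for 11 of 14, with 1 higher, beside 28.5% of all genes lower. In immature macrophages against precursors 6 of 14 changed, all lower (42.9%, 49.2% of all genes called and 26.6% lower). Zfp36, which encodes tristetraprolin and destabilises Tnf mRNA, had 14.2 ± 9.36 CPM in mature macrophages, against 81.2 ± 5.08 CPM in precursors (-2.51 ± 0.41, adjusted p = 0.000508). With IL4, 1 of 12 rose and 1 fell (16.7%, 20.8% of all genes). These were Zc3h12a, encoding the nuclease regnase 1 (0.80 ± 0.25, adjusted p = 0.0455), and its relative Zc3h12c (-1.07 ± 0.23, adjusted p = 0.00643).

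The genes closest in pattern to each member were found by the root mean square difference of centred log2 CPM, among 8762 genes over 9 differentiation libraries and 7015 genes over 6 IL4 table libraries. Only tested genes with a mean of at least 10 CPM and no predicted name were searched, so genes at lower levels were left out. The log2 CPM held a prior count of 2, which flattens the pattern of members with few reads, such as Il1a and Il10. In differentiation, Traf3, Suco and Smad3 lay nearest to Nlrp3 (0.126 to 0.147), Id2, Plaur and Pilra to Tnf (0.389 to 0.464), and Fgd6, Tns3 and Plxnb2 to Il18 (0.160 to 0.191). Il10 was nearest to Ifi27l2a, Hyal1 and Lgmn (0.377 to 0.465), Il1rn to Myl12b, Diaph1 and Xylt1 (0.351 to 0.430), and Tgfb1 to Rpl29, Rab11b and Mndal (0.187 to 0.209). None of the genes searched came close to Il1b, whose nearest were Olfm4, Rdh12 and Csf3r (0.953 to 0.967), while Il1a had Spn, Lilra6 and Stx11 (0.330 to 0.373). In the IL4 table, Cela1 and the chemokine genes Ccl4 and Ccl3 lay nearest to Tnf (0.119 to 0.173), and Alox5, Ltc4s and Ptpn18 to Nlrp3 (0.111 to 0.227). Il10 had D17H6S56E-5, S1pr1 and Clec4d (0.180 to 0.210), Il18 had Ptplb, Snx18 and Fhod1 (0.022 to 0.051), Tgfb1 had Aldh2, Pla2g4a and Ifngr1 (0.073 to 0.088), and Il1rn had Papss2, Ralgds and Rhob (0.30 to 0.346). Among the members themselves, the closest pairs were Il18 and Tgfb1 (0.264) and Nlrp3 and Tnf (0.373), both in the IL4 table.

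The authors' deposited table of genes under an adjusted p of 0.05 lists 8 of the 9 for immature against precursor cells, all but Tgfb1. The authors' deposited tables list 2 for mature against immature macrophages (Tnf and Nlrp3), 7 for mature macrophages against precursors, and 5 for IL4. The members listed were those called here, and in addition Il6, with adjusted p-values in the authors' deposited tables of 0.000637 in immature and 0.00016 in mature macrophages against precursors.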

How the data were processed

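RNA of 15 libraries, 3 in each of 5 groups, was measured by Ion Torrent sequencing of libraries made from column-purified, DNase-treated RNA, per the labels' protocols. Per the submitters' processing notes, HISAT2 2.0.5 and edgeR were used, and the builds GRCm38.p6 and GRCm39.p6 are named. How reads were counted, and with which strand setting, is not given in the sources used here. Deposited by the authors were gene-level read counts in 2 tables (differentiation and IL4), log2 RPM values for the same genes, and lists with an adjusted p-value per gene. Deposited coordinates of the members match GENCODE M21 (GRCm38), except Il6 and Il18 in the IL4 table.

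The members and gene lists were chosen with earlier results of these data known. The main test was edgeR 4.0.16 in R 4.3.3: filterByExpr with a minimum count of 10, TMM scaling, glmQLFit and glmQLFTest, two-sided, without covariates, with 9 libraries in 1 fit and 6 in another. RPKM uses the joined length of all M21 exons of a gene, in both tables. The code was tested on simulated data. Where a group held 0 reads, bounds take 3 reads over the group. Named list genes are up to 3 called genes of each list and comparison, of which some are printed. They were taken by p and with a mean of 5 CPM or more in the higher group. The cell markers named are the most abundant of their list. With IL4 the other macrophage markers are named as well, outside that rule, and Nfkb1 was chosen after its values were seen. Levels are not tested between tables, and those of C1qa and Nfkb1 are set side by side only as a description. Titles number the mice, but nothing more says how the cultures were kept apart, so p-values measure the spread between these libraries.

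Alternatives were RLE scaling, DESeq2 1.42.0, other filters, limma 3.58.1 on the deposited log2 RPM, pairwise fits, an adjusted p under 0.001, each library left out, the mouse number as a block, and, added after the data were seen, both mouse 1 libraries left out. In the check of pairing, deviations of same-numbered libraries correlated by 0.175 to 0.591 in the IL4 table (other pairs -0.487 to 0.247). These ranges overlap: unstimulated library 3 with IL4 library 2 had 0.247, and unstimulated library 2 with IL4 library 2 had 0.175. The titles pair the libraries by number, but the descriptions give each IL4 table library a different mouse code. Whether same-numbered libraries share an animal is therefore not settled. In the differentiation table the correlations were -0.129 to 0.165 (other pairs -0.128 to 0.139).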

Additional observations from a re-analysis of the deposited data

How the results depend on the processing

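Over the single genes, 457 values under an alternative kept their direction and side of the threshold, 8 gained the call, 21 lost it and 1 reversed: Nlrp3 in mature macrophages against precursors, not called, was 0.018 (log2) without mature library 1, beside -0.05, and -0.093 to 0.018 with each library left out. Most losses came from the stricter adjusted p of 0.001 on the same fit. The others came with libraries left out, for Il1rn in immature against precursor cells and for Tgfb1 with IL4. Under an adjusted p of 0.001, the 9 genes had 0 higher and 2 lower in immature against precursor cells, 1 higher in mature against immature, 0 higher and 1 lower in mature against precursor, and 2 lower with IL4. The pathway genes then had 8 higher and 16 lower, 2 higher and 1 lower, 11 higher and 20 lower, and 5 higher and 8 lower in the same order. DESeq2 called 1 of the 9 lower in mature against immature macrophages. With the mouse number as a replicate block, 1 of the 9 was higher with IL4 (Il1rn) and 25 pathway genes were lower. Without both mouse 1 libraries 1 of the 9 was higher (Il1rn). The block changed no other call of the 9 genes.

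With each library left out in turn, the 9 genes had 0 to 1 lower and the pathway genes 6 to 12 higher and 10 to 25 lower in mature against immature macrophages. The fewest higher came without immature library 2 and the most lower without mature library 3. With IL4 the 9 genes had 0 to 1 higher and the pathway genes 6 to 10 higher, the fewest without unstimulated library 2. Over all genes, 1991 were called in mature against immature macrophages, beside 1245 with only the 6 libraries compared in the fit, 1262 without immature library 1 and 1007 without immature library 2. With IL4, 1855 were called, and 2883 under the block. Il1a could not be tested with a filter at 1 CPM. Below about 3 reads in a library, near 0.704 to 1.24 CPM in unstimulated cells, differences were not detectable.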
